A study of Mus musculus with 24 samples.

Results

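Interferon response genes were followed in sorted nociceptors of mice with a conditional deletion of Tsc2 and of control mice, as 33 genes out of the 47643 gene identifiers counted. They comprise 4 receptor subunits, 9 transcription factors, 2 sensors of viral RNA, 13 effectors and 5 genes of ubiquitin or ubiquitin-like modification. The last 5 are named ubiquitin-like genes below and include the ligases Trim8, Trim21 and Trim25. The genes were picked by symbol, with earlier genotype results of these same libraries known. Their genotype differences are therefore a description, and the calls given below are those of a fit over all genes, printed for these genes. Control mice were Tsc2 flox/+ and Nav-Tsc2 mice Tsc2 flox/null, with 4 mice of each genotype aged 8-9 weeks. Both genotypes carried Nav1.8-Cre, the Rosa26-ZsGreen reporter and a floxed Tsc2 allele, and the L4 DRG came from the side opposite a sciatic nerve crush made 3 d before. Each mouse gave 3 technical libraries of 100 GFP-positive cells. Replicates 1 and 2 were male and replicates 3 and 4 female in both genotypes, so that sex and replicate number cannot be told apart from each other.

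The model has limits that the labels and the study's methods state. Nav1.8-Cre acts in most nociceptors and also in some neurons with myelinated axons. The null allele of Nav-Tsc2 mice is present in every cell of the animal, while control mice had a wild-type allele in its place. Since control mice also carried Nav1.8-Cre and a floxed allele, their labelled cells would keep the wild-type allele alone. The strain was a mix of C57BL/6 and AJ in both genotypes, and which parent strain each mouse carried at a given gene is not stated. Whether strain differences between mice moved with any value below was not tested.

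Type I interferons bind a receptor made of Ifnar1 and Ifnar2, and interferon gamma binds one made of Ifngr1 and Ifngr2. The first receptor acts through a complex that includes Stat2 and Irf9 and binds the interferon-stimulated response element (ISRE), and signals from the second reach genes with a gamma-activated site (GAS). In neurons as in other cells, the genes switched on encode RNA sensors, the ubiquitin-like protein Isg15 and effectors such as the Oas, Ifit, Mx and guanylate-binding proteins that limit viral growth.

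To show what these genes hold near their starts, the letters GAAA followed 2 bases later by GAAA (ISRE) and TTCNNNGAA (GAS) were sought on both strands of RefSeq promoter windows of GRCm38.p6, from 250 bases before to 50 after the start. A window was found for 27 of the 33 genes, and none for Trim8, Oas1e, Usp18, Ifi27, Mx1 and Parp14. ISRE letters stood in 12 of the 27 genes, or 44.4%, against 3.99% of the 27025 genes with a window. They were found in 0 of 4 receptor genes, 2 of 9 transcription factor genes, both sensor genes, 2 of 3 ubiquitin-like genes and 6 of 9 effector genes. GAS letters stood in 10 genes, or 37.0%, against 9.55% of all genes with a window. Both matches are descriptions of letters, and binding was not measured. The sequences that follow are those of the 2 higher effector genes with an ISRE match (Oas1a and Oas1c), of 4 genes with an ISRE match that were not called, and of Ifi202b, the gene with the largest difference, which had a GAS match only. Each is read 5′ to 3′ on the strand of its gene, with the matched letters in capitals, overlapping matches being written as 1 run. Where TTTC and TTTC stand in capitals in place of GAAA, the match is on the opposite strand.
Oas1a, chr5:120907523-120907552, minus strand: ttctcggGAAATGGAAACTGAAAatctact
Oas1c, chr5:120812606-120812635, minus strand: atgggacTTTCAGTTTCCATTTCccgggaa
Isg15, chr4:156200871-156200900, minus strand: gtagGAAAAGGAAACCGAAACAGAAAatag
Ifit1, chr19:34640794-34640823, plus strand: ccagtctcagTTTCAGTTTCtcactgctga
Trim21, chr7:102565447-102565476, minus strand: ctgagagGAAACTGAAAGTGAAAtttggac
Stat2, chr10:128270266-128270295, plus strand: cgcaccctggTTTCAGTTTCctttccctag
Ifi202b, chr1:173982974-173983002, minus strand: ctgtcatgatTTCTCAGAAtaactactga
Isg15 held 3 overlapping ISRE matches, Oas1a, Oas1c and Trim21 held 2 overlapping ones each, and Ifit1 held 2 apart, of which 1 is shown. Irf4, Irf9 and Trim25, which were also called, held neither set of letters in these windows.

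Mouse totals lay between 47959617 and 61290435 counts on genes, and single libraries between 8339220 and 34228180. Tsc2 itself had 13.4, 24.7, 21.5 and 24.1 CPM (a count scaled to a common library total after TMM scaling) in control mice 1 to 4 and 8.70, 8.51, 7.30 and 10.9 CPM in Nav-Tsc2 mice, a log2 fold change of -1.24 (SE 0.22, edgeR adjusted p = 0.00400). The neuronal label held: Tubb3 averaged 5908 ± 985 CPM in control and 7774 ± 715 CPM in Nav-Tsc2 mice, and the nociceptor sodium channel gene Scn10a 670 ± 138 and 608 ± 35.1 CPM (SD, n = 4 mice each). RNA of other cell types was present and differed between genotypes, which in pooled cells can come from fewer cells of a type or from less RNA per cell. The summed level of 12 glial markers ran from 1429 to 1636 CPM in control and from 473 to 777 CPM in Nav-Tsc2 mice, with S100b the 1 marker called, and lower. Of 11 macrophage markers, 7 were tested and Cx3cr1 alone was called, higher, and the sum ran from 5.24 to 10.1 CPM in control and from 10.6 to 27.5 CPM in Nav-Tsc2 mice. For 9 endothelial markers the ranges were 14.1 to 22.1 CPM and 19.8 to 35.4 CPM, with Kdr, Flt1 and Ly6c1 called higher among 5 tested. The 6 lymphocyte markers summed to between 0.253 and 2.63 CPM in control and between 2.39 and 4.37 CPM in Nav-Tsc2 mice, with Trbc2 called higher. The 4 neutrophil markers summed to between 0.145 and 0.424 CPM and between 2.46 and 5.86 CPM, with S100a8 and Ly6g called higher and S100a9 at 0 in every mouse. Fibroblast markers gave 73.1 to 236 CPM and 121 to 196 CPM, and red blood cell markers 1.63 to 2.80 CPM and 0.473 to 0.672 CPM, with none of either list called and Hbb-bt at 0 in every mouse. The part of these cells in the results below was not tested.

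Of the 33 interferon response genes, 31 had enough counts to be tested, and the exceptions were Irf8 and Mx1. A gene was called at an adjusted p under 0.05 together with a log2 fold change over 0.5 or under -0.5. One gene, Irf9, was called lower in Nav-Tsc2 mice (1 of 31, or 3.23%), beside 8.00% of the 17178 genes tested. Irf4, Trim8, Trim25, Oas1a, Oas1c, Oas1e and Ifi202b were called higher (7 of 31, or 22.6%), beside 9.12% of all genes. With the replicate number as a block, 2 genes were called lower and 4 higher. That fit pairs mouse 1 with mouse 1 and so on, a pairing that the labels do not state. With DESeq2 in place of edgeR, 7 were called in each direction. Leaving out 1 mouse gave 0 genes lower without control mouse 1 or 4 or Nav-Tsc2 mouse 2, 3 or 4, 2 without Nav-Tsc2 mouse 1 and 7 without control mouse 3. It gave 4 genes higher without control mouse 2, 3 without Nav-Tsc2 mouse 1 or 4 and 2 without Nav-Tsc2 mouse 2. Shares over all genes are not given beside the counts of these other fits, so nothing is read from how those counts differ. Over the 31 genes the median log2 fold change was 0.15, and over all genes 0.01. In 6 of the 31 genes every Nav-Tsc2 mouse lay above every control mouse, beside 14.6% of all genes, and in 0 every Nav-Tsc2 mouse lay below, beside 12.3% of all genes. Since the genes were picked with this contrast known, nothing is read from these shares. By role, 0 of 4 receptor genes, 2 of 8 transcription factor genes, 0 of 2 sensor genes, 2 of 5 ubiquitin-like genes and 4 of 12 effector genes were called.

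**Figure D1:**
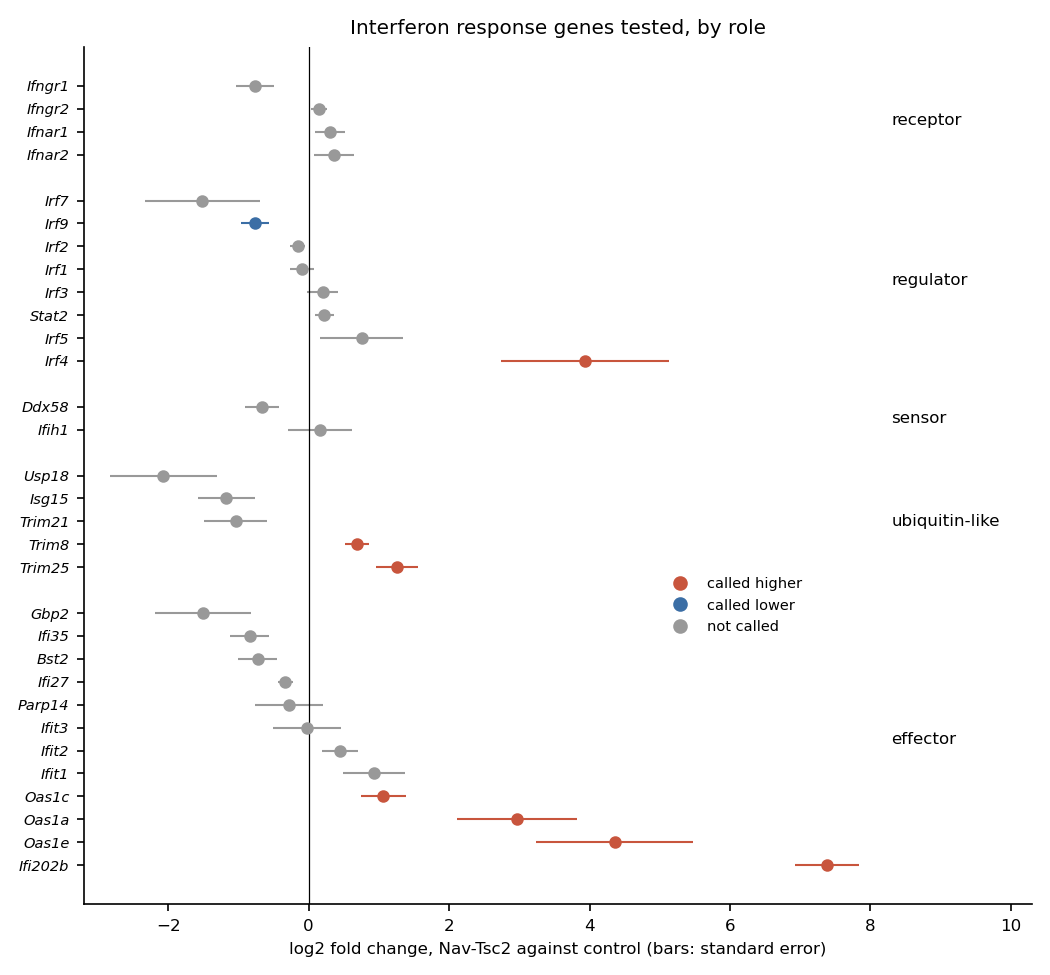
The log2 fold change between genotypes for the 31 interferon response genes tested, grouped by role, with edgeR standard errors as bars and colours for the calls. Receptor genes sit between -0.77 and 0.36, while effector genes spread from -1.50 (Gbp2) to 7.38 (Ifi202b).

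Per kb of exon, the order of levels in control mice was led by Ifi27, a mitochondrial and nuclear envelope protein, at 436 ± 24.7 CPM per kb (SD, n = 4 mice). Ifi35, which forms a complex with Nmi, followed at 60.7 ± 23.7 CPM per kb. Ifngr2 at 16.1 ± 2.14, Ifit1 at 15.8 ± 9.40 and Ifngr1 at 12.9 ± 5.26 CPM per kb came next, and these 3 did not differ beyond their spread. In Nav-Tsc2 mice Ifi27 stayed first at 346 ± 46.1 CPM per kb, with Ifi35 at 33.9 ± 3.32 and Ifit1 at 30.1 ± 6.60 CPM per kb behind it within each other's spread. Ifi202b, which was near the bottom in control mice at 0.174 CPM per kb, reached 29.2 CPM per kb in Nav-Tsc2 mice. Gene lengths are from a GENCODE release near to, but not the same as, that of the counts.

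The receptor genes were present in every library. Ifnar1 had 18.6, 16.5, 20.2 and 16.0 CPM in control mice 1 to 4 and 27.4, 20.1, 13.6 and 26.9 CPM in Nav-Tsc2 mice. Ifnar2 had 3.03, 5.70, 4.81 and 3.35 CPM in control and 4.71, 4.44, 6.35 and 6.13 CPM in Nav-Tsc2 mice. Both genes of the type I receptor overlapped between genotypes, with log2 fold changes of 0.30 (SE 0.22, edgeR adjusted p = 0.373) and 0.36 (SE 0.28, edgeR adjusted p = 0.427). Ifngr2, the signalling subunit of the interferon gamma receptor, had 68.1, 51.9, 55.8 and 67.0 CPM in control and 66.5, 58.6, 74.9 and 68.7 CPM in Nav-Tsc2 mice (log2 fold change 0.15, SE 0.12, edgeR adjusted p = 0.442). Ifngr1, the ligand-binding subunit, had 49.0, 49.4, 19.6 and 28.6 CPM in control and 21.1, 20.1, 25.0 and 20.1 CPM in Nav-Tsc2 mice. The 2 male control mice stood above all others, and the 2 female control mice lay within or close to the range of the Nav-Tsc2 mice. Ifngr1 had a log2 fold change of -0.77 (SE 0.27, edgeR adjusted p = 0.0765), with -1.27 within male mice and -0.10 within female mice. Without control mouse 3, and with DESeq2 or a random effect of mouse, Ifngr1 was called lower.

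The ligands were close to absent. Of 21 interferon genes, 19 had 0 counts in all 8 mice, and Ifna16 and Ifnk together had 3 counts. For Ifnb1 and Ifng, 0 counts in the 4 mice of a genotype allow a level of up to 0.0136 CPM in control and 0.0135 CPM in Nav-Tsc2 mice, for counting error only.

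Stat2 and Irf9 are parts of the complex that carries type I signals to the ISRE. Irf9 (chromosome 14, 55603571 to 55610030) had 32.6, 16.8, 26.9 and 29.4 CPM in control mice and 17.3, 14.2, 16.1 and 14.8 CPM in Nav-Tsc2 mice. Control mouse 2 fell among the Nav-Tsc2 mice and the other control mice lay above all of them, a 1.70-fold lower level in Nav-Tsc2 mice (log2 fold change -0.76, SE 0.20, edgeR adjusted p = 0.0237). In 6 of 16 other fits Irf9 was no longer called, namely without control mouse 1 or 4, without Nav-Tsc2 mouse 2, 3 or 4, and with a random effect of mouse, and the adjusted p reached up to 0.0683. Stat2 had 51.1, 53.1, 49.7 and 74.3 CPM in control and 67.7, 71.0, 62.0 and 65.3 CPM in Nav-Tsc2 mice (log2 fold change 0.22, SE 0.14, edgeR adjusted p = 0.294). A single control mouse, the fourth, stood above every Nav-Tsc2 mouse.

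Among the other interferon regulatory factors, 3 of the widely expressed ones overlapped between genotypes. Irf1, an activator induced by interferon gamma, had 18.0, 24.3, 18.2 and 17.9 CPM in control and 17.7, 14.4, 21.2 and 20.0 CPM in Nav-Tsc2 mice (log2 fold change -0.10, SE 0.17, edgeR adjusted p = 0.744). Irf2, which competes with Irf1, had 40.8, 39.0, 47.4 and 42.9 CPM in control and 42.3, 35.9, 35.8 and 38.6 CPM in Nav-Tsc2 mice (log2 fold change -0.16, SE 0.11, edgeR adjusted p = 0.336). Irf3, activated when cells sense viral nucleic acid, had 5.39, 6.61, 9.15 and 6.14 CPM in control and 6.83, 8.12, 7.50 and 8.90 CPM in Nav-Tsc2 mice (log2 fold change 0.20, SE 0.22, edgeR adjusted p = 0.581). In each of them at least 1 Nav-Tsc2 mouse lay within the control range. Irf7, which amplifies type I interferon production, varied widely, with 5.69, 9.15, 0.724 and 6.11 CPM in control and 0.288, 1.63, 1.50 and 4.15 CPM in Nav-Tsc2 mice (log2 fold change -1.51, SE 0.82, edgeR adjusted p = 0.230). Irf5 had 6.08, 3.43, 6.29 and 0.562 CPM in control and 4.96, 8.86, 5.08 and 8.73 CPM in Nav-Tsc2 mice (log2 fold change 0.75, SE 0.59, edgeR adjusted p = 0.420). Control mouse 3 was the low one for Irf7 and control mouse 4 the low one for Irf5.

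Irf4 and Irf8 are factors of lymphocytes and myeloid cells. Irf4 (chromosome 13, 30749226 to 30766976) had 6, 0, 0 and 0 counts in control mice and 28, 16, 23 and 30 counts in Nav-Tsc2 mice. The 2 groups did not overlap, at means of 0.0254 and 0.436 CPM (log2 fold change 3.93, SE 1.19, edgeR adjusted p = 0.0432). The size of this fold depends on how the fit treats counts of 0, and the call was kept in 8 of 16 other fits. Without control mouse 2, 3 or 4 or any single Nav-Tsc2 mouse, and without the low-count filter, it was lost, with an adjusted p of up to 0.114. Irf8, at too few counts to test, had 0 counts in every control mouse, which allows up to 0.0136 CPM over the group, and 2, 9, 13 and 2 counts in Nav-Tsc2 mice. A single library held a median of 98.2% of the Irf8 level of a Nav-Tsc2 mouse. The macrophage marker sum, given above, was also higher in every Nav-Tsc2 mouse, while the lymphocyte sums overlapped between genotypes. Only Cx3cr1 and Trbc2 were called in these lists. Cd79a, the other lymphocyte marker tested, had a log2 fold change of -0.77 (SE 0.99, edgeR adjusted p = 0.643). The part of such cells in the Irf4 and Irf8 counts was not tested.

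Both RNA sensors bind viral double-stranded RNA. Ddx58, which encodes RIG-I, averaged 30.0 ± 7.33 CPM in control and 18.9 ± 5.87 CPM in Nav-Tsc2 mice (SD, n = 4 mice). The difference was -0.67 on the log2 scale (SE 0.24, edgeR adjusted p = 0.0819), and it passed as lower with the replicate block (adjusted p = 0.0162). Within males and within females the change was -0.67 and -0.68. Ifih1, which encodes MDA5, averaged 3.13 ± 1.49 and 3.50 ± 1.49 CPM (log2 fold change 0.16, SE 0.46, edgeR adjusted p = 0.851).

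Of the 5 ubiquitin-like genes, the ligases Trim8 and Trim25 were called higher. Isg15, Usp18 and the ligase Trim21 were not called. Trim8 (chromosome 19, 46501702 to 46516848), a ligase of cytokine signalling, had 16.4, 17.8, 25.6 and 19.6 CPM in control and 31.8, 35.6, 26.6 and 33.7 CPM in Nav-Tsc2 mice. Nav-Tsc2 mouse 3 lay just above control mouse 3, and the groups did not overlap (1.61-fold, log2 fold change 0.69, SE 0.16, edgeR adjusted p = 0.0166). With the replicate block the adjusted p was 0.0522, and without Nav-Tsc2 mouse 2 the call was also lost. Trim25 (chromosome 11, 88999376 to 89020293), the ligase that activates RIG-I, had 11.2, 12.4, 15.9 and 17.5 CPM in control and 50.7, 23.9, 20.1 and 41.6 CPM in Nav-Tsc2 mice. All 4 Nav-Tsc2 mice exceeded all 4 control mice, although they differed among themselves by more than the control mice did (2.39-fold, log2 fold change 1.26, SE 0.30, edgeR adjusted p = 0.0157). Trim25 kept its call in 16 of 16 other fits, with the adjusted p at most 0.0466.

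The Isg15 system itself was not called. Isg15 averaged 3.84 ± 1.47 CPM in control and 1.70 ± 0.526 CPM in Nav-Tsc2 mice (log2 fold change -1.17, SE 0.40, edgeR adjusted p = 0.0676). Usp18, the protease that removes Isg15 and restrains the type I receptor, had 15.3, 4.00, 1.38 and 28.8 CPM in control and 3.54, 3.47, 2.63 and 2.17 CPM in Nav-Tsc2 mice (log2 fold change -2.07, SE 0.76, edgeR adjusted p = 0.0837). Control mice 1 and 4 held most of the Usp18 signal, control mouse 3 lay below every Nav-Tsc2 mouse, and a single library gave a median of 72.5% of a mouse's level. Trim21, a ligase and antibody receptor, averaged 5.17 ± 1.05 CPM in control and 2.52 ± 1.52 CPM in Nav-Tsc2 mice (log2 fold change -1.04, SE 0.45, edgeR adjusted p = 0.136). Isg15 and Usp18 were called lower with DESeq2 and without control mouse 3, and Trim21 with a random effect of mouse.

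Ifi202b carried the largest difference of the 33 genes. It is a member of the Ifi200 family, whose proteins bind DNA, and lies on chromosome 1 from 173962568 to 173982744. Control mice had 0.271, 0.454, 0.253 and 0.201 CPM (16, 24, 14 and 10 counts). Nav-Tsc2 mice had 48.9, 32.5, 86.7 and 30.4 CPM (2375, 1834, 5311 and 1798 counts). Every Nav-Tsc2 mouse lay far above every control mouse, at a fitted 167-fold difference (log2 fold change 7.38, SE 0.46, edgeR adjusted p = 2.24e-05). The highest control library had 0.553 CPM and the lowest Nav-Tsc2 library 16.6 CPM, so that 0 of 12 control and 12 of 12 Nav-Tsc2 libraries were over 1 CPM. The call was kept in 16 of 16 other fits, with log2 fold changes from 6.97 to 7.66. None of the 50-base stretches of its transcripts was shared with another gene.

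**Figure D2:**
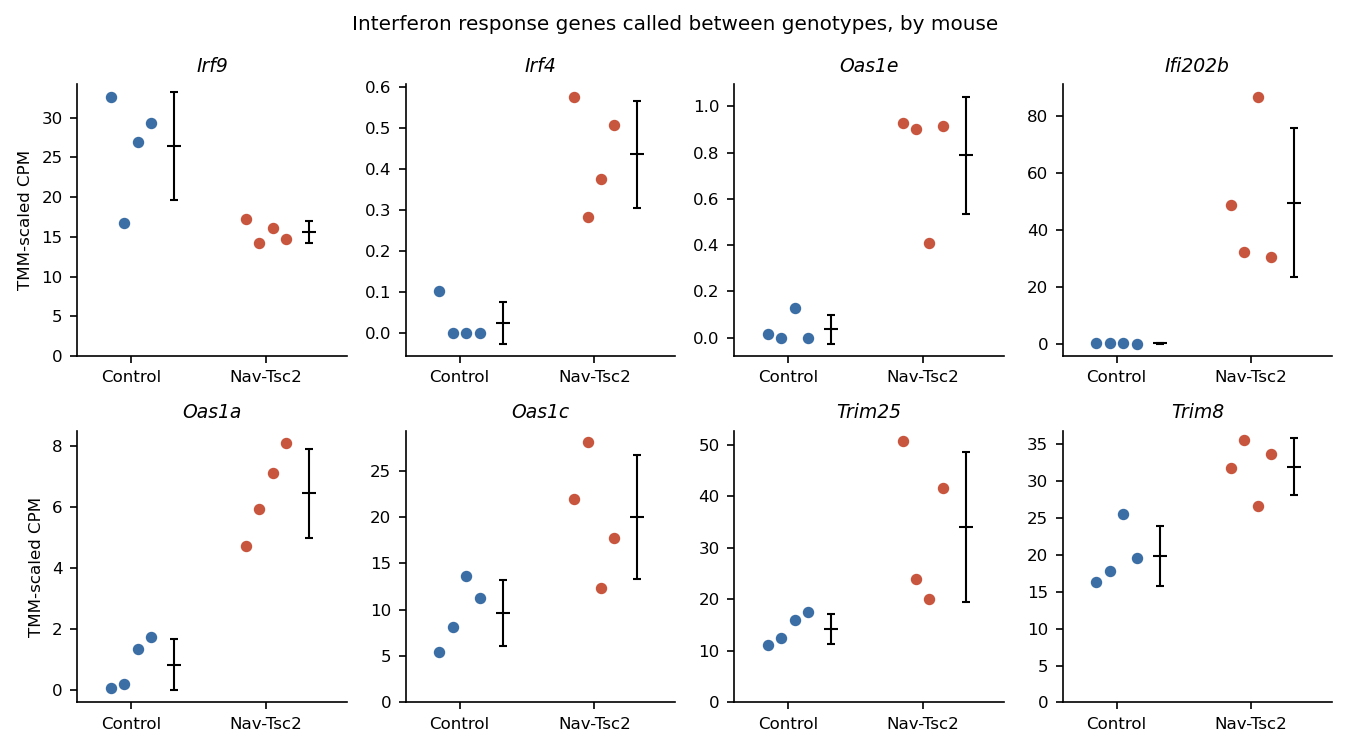
TMM-scaled CPM of the 8 interferon response genes called between genotypes, 1 point per mouse (replicates 1 to 4 from left to right), with the mean and SD of 4 mice beside them. Irf9 is the gene called lower. Groups overlap for Irf9 and Oas1c and do not overlap for the other 6 genes.

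The Oas1 genes make 2-5A synthetases, which sense double-stranded RNA and switch on RNase L, or relatives of these enzymes. Among the 33 genes were 3 neighbours on chromosome 5. All 3 were called higher. Oas1a (120896256 to 120907521) had 0.0508, 0.189, 1.34 and 1.73 CPM in control and 4.71, 5.91, 7.09 and 8.07 CPM in Nav-Tsc2 mice, with no overlap (7.81-fold, log2 fold change 2.96, SE 0.85, edgeR adjusted p = 0.0351). Control males were lower than control females. Oas1a was over 1 CPM in 4 of 12 control and 12 of 12 Nav-Tsc2 libraries. Oas1c (120800194 to 120812514) had 5.44, 8.14, 13.6 and 11.2 CPM in control and 22.0, 28.1, 12.3 and 17.8 CPM in Nav-Tsc2 mice. Nav-Tsc2 mouse 3 lay below control mouse 3, so the groups overlapped (2.09-fold, log2 fold change 1.06, SE 0.32, edgeR adjusted p = 0.0433). Oas1e (120786226 to 120795530) had 1, 0, 7 and 0 counts in control and 45, 51, 25 and 54 counts in Nav-Tsc2 mice. Its groups did not overlap, at means of 0.0359 and 0.788 CPM (log2 fold change 4.36, SE 1.12, edgeR adjusted p = 0.0228). With the replicate block the adjusted p was 0.0291 for Oas1a, 0.109 for Oas1c and 0.0586 for Oas1e, so that Oas1c and Oas1e lost their calls. Leaving out 1 mouse ended the call of Oas1a in 5 of 8 cases (control mouse 2 or any Nav-Tsc2 mouse), of Oas1c in 6 (every mouse but control 3 and Nav-Tsc2 3) and of Oas1e in 4 (control mouse 1 and Nav-Tsc2 mice 1, 2 and 4). Of the 50-base stretches of these genes' transcripts, 57.6% were shared with another gene for Oas1a (Oas1g and Oas1b), 15.1% for Oas1c and 10.7% for Oas1e, and how reads of such stretches were placed limits these counts.

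The Ifit genes encode proteins that bind foreign RNA ends, and 3 neighbours on chromosome 19 were followed. Ifit1 had 48.0, 11.1, 37.3 and 71.3 CPM in control and 106, 71.4, 70.6 and 71.2 CPM in Nav-Tsc2 mice (log2 fold change 0.93, SE 0.44, edgeR adjusted p = 0.167). Control mouse 4 lay within the Nav-Tsc2 range and the other control mice below it. Ifit2 averaged 25.2 ± 9.99 and 34.2 ± 6.68 CPM (log2 fold change 0.44, SE 0.26, edgeR adjusted p = 0.270). Ifit3 averaged 13.3 ± 11.3 and 13.1 ± 4.26 CPM (log2 fold change -0.02, SE 0.48, edgeR adjusted p = 0.981), and 51.2% of its 50-base stretches were shared with Ifit3b. None of these 3 was called, although Ifit2 passed without control mouse 3 and Ifit1 with a random effect of mouse.

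The other effectors tested had log2 fold changes below 0, and none of them was called. Ifi27, the most abundant of the 33 genes, had 642, 669, 587 and 659 CPM in control and 506, 491, 599 and 436 CPM in Nav-Tsc2 mice. Nav-Tsc2 mouse 3 overlapped the control mice and the other 3 lay below them (log2 fold change -0.33, SE 0.10, edgeR adjusted p = 0.0445), which passes the test but not the limit on the fold. Ifi35 had 117, 113, 46.5 and 142 CPM in control and 61.5, 65.0, 54.8 and 52.8 CPM in Nav-Tsc2 mice (log2 fold change -0.84, SE 0.28, edgeR adjusted p = 0.0596). Control mouse 3 was the lowest of all 8 for Ifi35, and without it the gene was called lower. Bst2, which tethers budding virus to the membrane, averaged 7.38 ± 1.89 and 4.45 ± 1.06 CPM (log2 fold change -0.73, SE 0.28, edgeR adjusted p = 0.0921). Gbp2, an interferon gamma-induced GTPase, had 7.54, 3.07, 1.19 and 15.4 CPM in control and 2.67, 1.47, 1.81 and 3.67 CPM in Nav-Tsc2 mice (log2 fold change -1.50, SE 0.68, edgeR adjusted p = 0.156). Parp14, an ADP-ribosyltransferase, averaged 3.29 ± 2.20 and 2.70 ± 0.488 CPM (log2 fold change -0.28, SE 0.49, edgeR adjusted p = 0.741). Mx1, an antiviral GTPase, had 9, 28, 0 and 45 counts in control and 2, 2, 3 and 4 counts in Nav-Tsc2 mice and was not tested. Control mouse 4 was the highest control mouse, and control mouse 3 the lowest, for Gbp2, Usp18 and Mx1 alike.

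How often a mouse was the highest or lowest of its genotype was then counted over all genes tested. Control mouse 3 had the lowest level of the 4 control mice in 12 of the 31 genes tested, or 38.7%, against 25.9% of all genes tested, and in 7 of the 12 genes with ISRE letters. Control mouse 4 had the highest in 10 of 31, or 32.3%, against 25.0% of all genes, and in 6 of the 12 with ISRE letters. Mice of the other genotype gave similar counts: Nav-Tsc2 mouse 1 had the highest of its group in 11 of 31, or 35.5%, against 21.7% of all genes, and Nav-Tsc2 mouse 3 the lowest in 11 of 31, against 27.5%, and in 7 of the 12 with ISRE letters. The coefficient of variation among mice was larger in control than in Nav-Tsc2 mice for 23 of 31 genes, or 74.2%, and for 69.3% of all genes tested. Its median over the 31 genes was 37.5% in control and 22.6% in Nav-Tsc2 mice. Over all genes it was 27.3% and 18.3%.

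**Figure D3:**
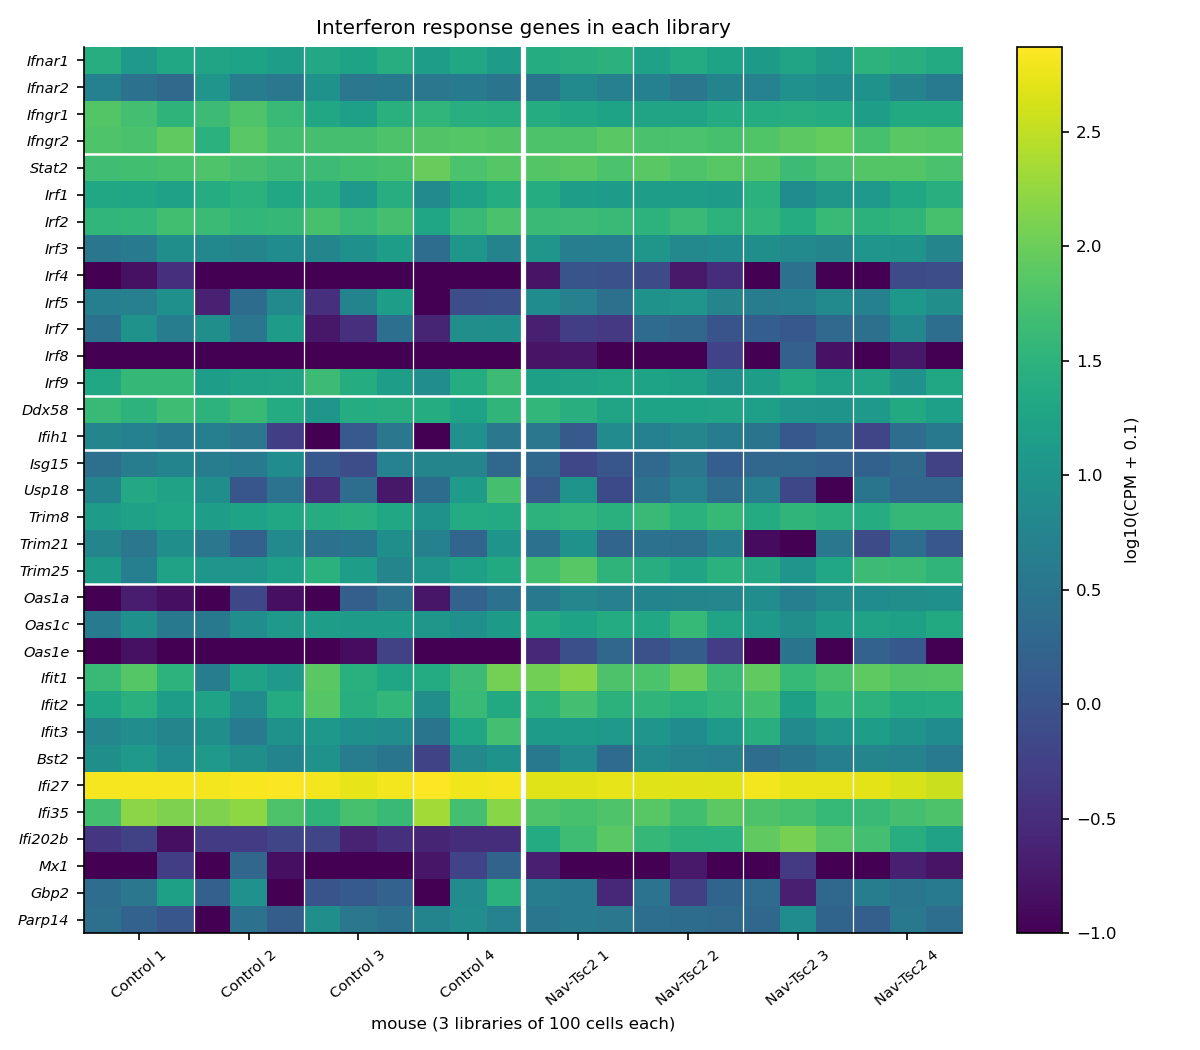
The level of the 33 interferon response genes in each of the 24 libraries, as log10(CPM + 0.1), in rows grouped from receptors at the top to effectors at the bottom. Ifi27 is bright in every library, Ifngr1 runs from 15.4 to 68.2 CPM in control and from 14.4 to 25.6 CPM in Nav-Tsc2 libraries, Ifi202b and Oas1a separate the genotypes library by library, and the top library of a mouse holds a median of 100% of its Mx1 level and 98.2% of its Irf8 level.

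Sex was tested over all genes beside genotype, a contrast that the choice of genes did not rest on. Called for sex were 5 of 17178 genes (0.0291%) with edgeR and 108 of 17178 with DESeq2. Either way 0 of the 31 interferon response genes were called, the smallest adjusted p with edgeR being 0.698. At an unadjusted p under 0.05 with edgeR there were 3 (Ddx58, Oas1a and Ifit3). Whether the genotype difference itself differed between the sexes was tested by an interaction, for which 1 gene in all was called (0.00582%) and 0 of the 31, with 5 at an unadjusted p under 0.05 (Oas1a, Oas1c, Ifngr1, Parp14 and Trim21). The smallest adjusted p with edgeR was 0.304. With DESeq2 the interaction was called for 316 of all genes (1.84%), 3 of them among the 31, Oas1a, Oas1c and Ifngr1. For Oas1a the log2 fold change was 5.44 within males and 2.30 within females, and for Oas1c 1.87 and 0.27. In the 2 males against 2 males alone, 2 of the 31 genes were called lower, beside 6.83% of all genes, and 7 higher, beside 8.28%. In the females 0 were called lower, beside 1.23% of all genes, and 1 higher, Ifi202b, beside 1.95%, so that fewer calls were made in females over all genes as well.

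Other genes of the pathway, listed by textbook role, numbered 144, of which 143 matched a gene and 89 were tested. Called lower were 9 of the 89 (10.1%) and called higher another 9 (10.1%), beside the 8.00% and 9.12% of all genes, with a median log2 fold change of 0.03. With the replicate block, 4 were called lower. Leaving out 1 mouse gave 1 lower without Nav-Tsc2 mouse 1 or 2, 3 without Nav-Tsc2 mouse 3, 4 without control mouse 1 or Nav-Tsc2 mouse 4 and 5 without control mouse 4. Shares over all genes are not given for these other fits either. Among the 14 receptor-proximal genes, Pias1 and Irf2bp2 were called lower and none higher, and 0 of 12 sensor genes and 0 of 6 ubiquitin-like genes were called. The 57 effector genes tested held the other calls, 7 lower and 9 higher.

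The higher effector genes came mostly from a few families. Slfn5, Slfn9 and Slfn8, Schlafen genes of growth and viral restriction, averaged 10.1 ± 3.14, 4.45 ± 1.24 and 0.464 ± 0.102 CPM in Nav-Tsc2 mice, with log2 fold changes of 9.29, 6.30 and 3.46. Their control mice had at most 0.0201, 0.136 and 0.102 CPM. Ly6e, a membrane protein that modulates viral entry, rose from 9.67 ± 5.45 to 223 ± 15.8 CPM (log2 fold change 4.52, SE 0.37, edgeR adjusted p = 8.38e-05). Ifi203 and Ifi207, Ifi200 genes like Ifi202b, had log2 fold changes of 4.71 (SE 1.23, edgeR adjusted p = 0.0237) and 3.31 (SE 1.01, edgeR adjusted p = 0.0440). Tor3a, Ifi27l2a and Ifit1bl2 rose by log2 fold changes of 2.20, 1.91 and 1.66, without overlap between genotypes. With the replicate block Ifi203 alone of these 9 lost its call (adjusted p = 0.0621).

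Among genes called lower, Nmi, the partner of Ifi35, had the smallest adjusted p, with 36.0, 23.9, 24.8 and 34.3 CPM in control and 18.1, 13.6, 17.2 and 16.8 CPM in Nav-Tsc2 mice (log2 fold change -0.86, SE 0.17, edgeR adjusted p = 0.00753). The guanylate-binding genes Gbp7 and Gbp3 had log2 fold changes of -1.04 (SE 0.27, edgeR adjusted p = 0.0234) and -2.05 (SE 0.56, edgeR adjusted p = 0.0295), and the GTPase gene Igtp one of -0.78 (SE 0.21, edgeR adjusted p = 0.0272). Pias1, an inhibitor of cytokine signalling, fell by 0.53, Irf2bp2 by 0.77, Cmpk2 by 0.62 and Ifitm2 by 1.04 on the log2 scale, and each lost its call with the replicate block, with adjusted p from 0.0718 to 0.144. Iigp1, another GTPase, had 1.10, 1.19, 0.0905 and 51.0 CPM in control and at most 0.254 CPM in Nav-Tsc2 mice. Its value rested on control mouse 4, and it lost its call with the replicate block as well (adjusted p = 0.156).

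**Figure D4:**
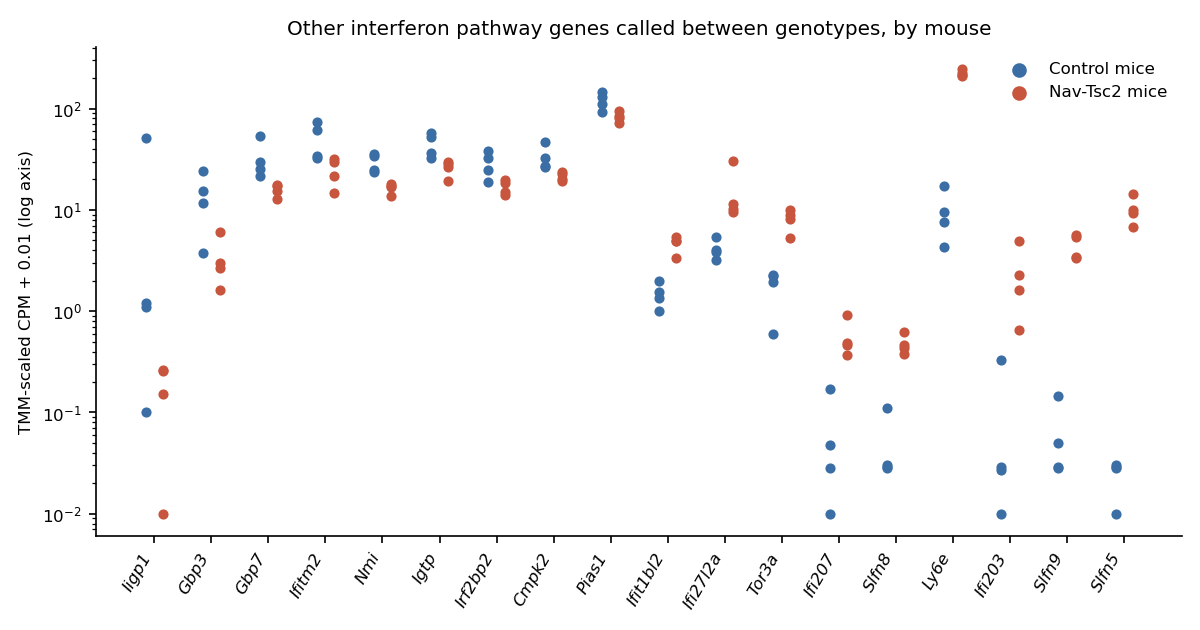
TMM-scaled CPM plus 0.01, on a log axis, of the 18 interferon pathway genes outside the 33 that were called, with the 4 control and 4 Nav-Tsc2 mice as points, ordered by fold change. Slfn5, Ifi203, Slfn9 and Ly6e stand apart on the higher side, and Iigp1 on the lower side has a single control mouse near 51.0 CPM.

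Several of these genes are neighbours in the genome, and the tested genes that start within 250 kb of each of the 31 were counted. The genes shown were chosen after their values were seen, and the other windows ranged from no calls to several. There were 0 called of 12 neighbours around Ifngr2, 0 of 8 around Irf1 and 1 of 19 around Bst2. Around Usp18, 3 of 6 were called, all higher (Mical3, Slc6a12 and Iqsec3). Of 32 neighbours of Irf3, 2 were called lower and 4 higher, and of 25 neighbours of Irf7, 2 lower and 3 higher. Of 19 neighbours of Irf9, 2 were called lower and 2 higher. Beside these counts, 8.00% of all genes tested were called lower and 9.12% higher. Around Ifi202b, 3 of 4 neighbours were called, all higher: Ifi203, Ifi211 and Ifi207, which start at -40.1, -69.7 and -241 kb (toward lower coordinates). The other one, Mndal, had a log2 fold change of 2.44 (SE 1.45, edgeR adjusted p = 0.277). Around Oas1a, 3 of 6 neighbours were called, Oas1c and Oas1e higher and Rph3a, a synaptic vesicle gene, lower, while Oas1b of the same cluster had a log2 fold change of -0.09 (SE 0.89, edgeR adjusted p = 0.963). Around Ifit1, 4 of 10 were called, all higher: Ifit1bl2, the lysosomal lipase gene Lipa, the cholesterol hydroxylase gene Ch25h and Gm26902. Ch25h was at 0 CPM in every control mouse and averaged 2.76 ± 0.881 CPM in Nav-Tsc2 mice. Around Gbp2, 3 of 6 were called, all lower, Gbp7, Gbp3 and Kyat3. Around Trim25, 4 of 7 were called, Akap1, Scpep1 and Coil higher and Gm525 lower.

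**Figure D5:**
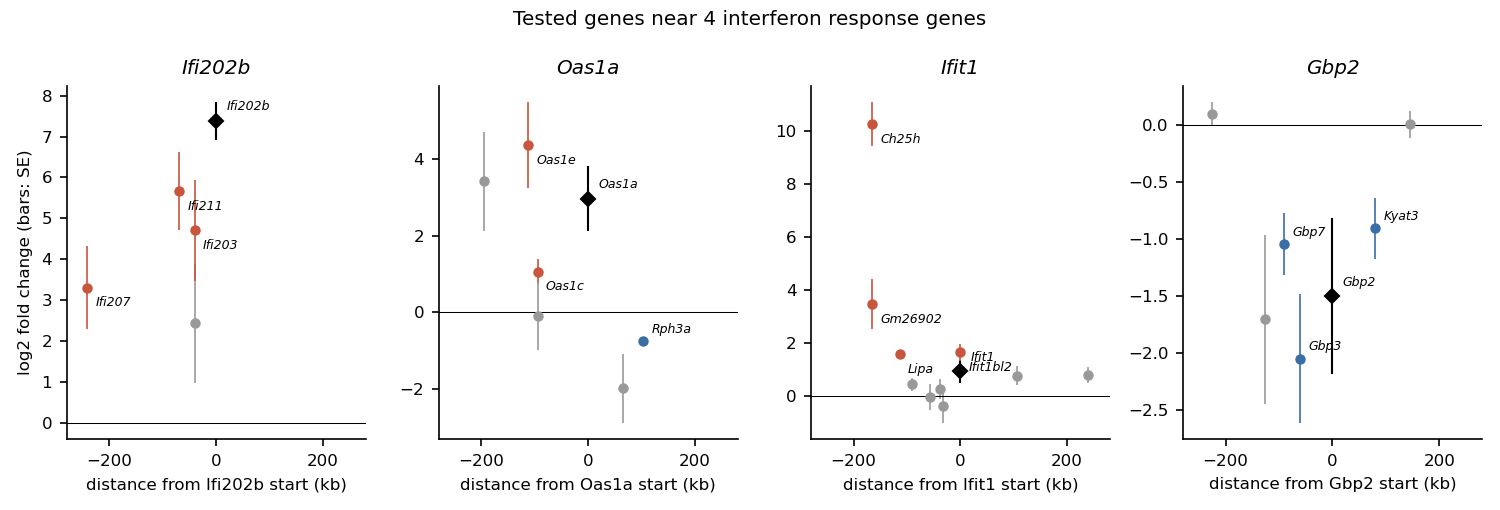
Log2 fold change with its standard error for the tested genes that start within 250 kb of Ifi202b, Oas1a, Ifit1 and Gbp2 (black diamonds), by distance from that gene's start. Coloured points are genes called higher or lower, and named. The 4 neighbours of Ifi202b are all above 0, and the genes around Gbp2 that were called are below 0.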

How the data were processed

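Gene counts of 24 RNA-seq libraries were used, 3 for every mouse, with 4 mice per genotype. The authors made cDNA with the SMARTer Ultra Low kit, aligned single 50-base reads to mm10 with STAR and deposited HTSeq counts per gene, not normalized; tool versions and the strand setting are not given in the sources used here. Between 47.6% and 55.9% of each library's counted reads were not assigned to a gene and were left out. This share takes in every class that HTSeq sets apart, not only reads outside genes. The authors' table of DESeq2 results, with normalized values in 8 columns for single libraries or mice, fold changes and p-values, was not used. Identifiers matched a symbol of GENCODE vM21 (GRCm38) in 47224 of 47643 cases.

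Counts were summed per mouse, since the 3 libraries are technical, and tested in R 4.3.3 with edgeR 4.0.16 (quasi-likelihood F-test, TMM scaling, filterByExpr) over 17178 genes with Benjamini-Hochberg adjustment. The test was tried on simulated counts. SE is the fold change (log2) over the square root of the F statistic. limma 3.58.1 (voom, with a random effect of mouse) and DESeq2 1.42.0 were alternatives, as were other scalings and filters, a replicate block, sex as a covariate, other thresholds and leaving out each mouse. Fits within 1 sex were added after seeing the data. Reads carry no molecular identifiers, so limits from 0 counts cover counting error only.

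Same-numbered mice deviated from their genotype means together (r = 0.184, 0.185, 0.108 and 0.199 over 8445 genes, all over 0.1), and the replicate block was fitted for that reason. Mice of the same sex and unequal numbers gave r of 0.0627 to 0.198, and mice of opposite sex -0.251 to -0.0826. These values therefore cannot tell pairs by number from a shared sex. The labels state no pairs, so the block is an alternative fit only.

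The 33 genes and the gene lists were chosen with earlier results of these data known. The text names Tsc2, all 33 genes, with values in every mouse for those called and for receptors and Stat2 or Irf genes, and up to 12 called pathway genes in each direction. Of cell markers, up to 3 per list with the largest mean CPM are named. Kdr, Hbb-bt, S100a9, Ifnb1, Ifng, the neighbouring genes and the members shown in every mouse beyond this rule were chosen after their values were seen. Mnda of the pathway list matched no gene.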

Additional observations from a re-analysis of the deposited data

Results flagged for a closer look

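In 7 of 62 groups of 4 mice, 1 mouse lay apart from the other 3 (a gap over Dixon's critical value), where chance gives about 1 in 20, or 3.10. In control mice these were mouse 4 for Stat2 (74.3 CPM) and Ifit3 (30.2 CPM), mouse 2 for Irf1 (24.3 CPM), mouse 1 for Irf4 (0.102 CPM, the others at 0) and mouse 3 for Oas1e (0.127 CPM). In Nav-Tsc2 mice they were mouse 3 for Oas1e (0.408 CPM, the lowest) and mouse 1 for Ifit1 (106 CPM). Irf4 and Oas1e are 2 of the genes called higher, and their values without each of these mice are part of the fits that leave out a mouse.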

How the results depend on the processing

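Ifi202b and Trim25 kept their call in all 16 other fits. The count of interferon response genes called lower (1) was 7 with DESeq2, 2 with the stricter low-count filter, 2 under the replicate block, 2 after adding sex, 3 when mouse was a random effect, 2 with no fold change limit, 7 at an adjusted p under 0.1, 2 within males and 0 within females, and between 0 and 7 with 1 mouse left out. The count called higher (7) was 4 with the replicate block, 1 within females and between 2 and 7 with 1 mouse left out, the lowest without Nav-Tsc2 mouse 2. Counts over all genes are not given beside most of these, so nothing is read from how they differ. Without control mouse 3 the median log2 fold change of the 31 genes (0.15) turned to -0.10 (range without 1 mouse -0.10 to 0.20), and it was 0.25 when mouse was a random effect, a fit in which the median of all genes shifted to 0.14. With that fit 2705 of all genes and 20 pathway genes were higher, and at an adjusted p under 0.1 there were 14 pathway genes higher. Pathway genes called lower (9) were 4 with the replicate block and 1 to 9 with 1 mouse left out. Without the low-count filter, 2 of the 33 genes were called for sex (344 of 30194 over all genes) and 4 for the interaction (618 of 30194), and with DESeq2 3 of the 31 for the interaction (316 of 17178). Ifit3 turned positive under the replicate block (0.27), after adding sex (0.14), with random mice (0.39) and without 1 mouse (between -0.26 and 0.77). With 1 mouse left out, Parp14 ranged from -0.54 to 0.16, Irf1 from -0.17 to 0.023 and Ifih1 from -0.12 to 0.41, and Parp14 was 0.29 with random mice. The cause of these changes was not tested. The replicate block ended the calls of Trim8, Oas1c and Oas1e and made Ddx58 pass; it changed no other call of the 31. Genes under about 1 CPM rest on few counts.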
